A study of Mus musculus with 4 samples.

Results

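The data examined here are the levels, in late two-cell mouse embryos, of 8 transcription factor genes of the trophectoderm, Cdx2, Gata3, Eomes, Tfap2c, Tfap2a, Elf5, Elf3 and Gata2. They were taken by symbol from the 24411 genes listed in each library, and all 8 were found. Polyadenylated RNA was sequenced in 4 libraries, each made from a pool of 10 embryos of the ICR strain that had been fertilized in vitro, cultured in KSOM medium with bovine serum albumin and collected at 36 h post-insemination (hpi). The embryos of 2 libraries (treated embryos) had been cultured with 6 µM 10074-G5, an inhibitor of the MYC-MAX dimer, and DMSO, its solvent, was given to the other 2 (control embryos). The treatment started at 6 hpi according to the design text and at 3 hpi according to the sample labels. Pooling hides differences between embryos. The study's methods call the replicates biological, but no source says whether they came from separate fertilizations, so p-values measure the spread between these libraries only.

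The trophectoderm is the outer epithelium of the blastocyst, which pumps fluid into the cavity and later forms the placenta. Cells on the outside of the morula exclude Hippo signaling, YAP1 then works with TEAD4 in the nucleus, and Cdx2 and Gata3 are switched on. Eomes and Elf5 act later to keep trophoblast stem cells dividing, Gata2 works with Gata3 in trophoblast, and Tfap2c and its relative Tfap2a are AP-2 factors that open and bind epithelial gene promoters. Elf3 is an epithelial factor of the ETS family. The comparison asks whether RNA of these regulators, most of which act several cleavages later, was already present at the two-cell stage. It also asks whether their RNA levels differed when MYC was inhibited during zygotic genome activation (ZGA). With embryos collected only at 36 hpi, RNA stored in the oocyte and RNA newly made by the embryo cannot be told apart.

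Because MYC-MAX binds the E-box CACGTG, the promoters of the 8 genes were read first. The RefSeq promoter table (GRCm38.p6, the assembly also called mm10) held 10 promoters for 7 of them, all but Tfap2c. Each window was the 250 bases before a transcription start of that table. The Gata3 window and both Tfap2a windows lie inside the gene spans given below, so the bases before those spans were not read. The second windows of Elf5 and Gata2 also lie inside their spans, while the first window of each ends just before its span. The Eomes window ends just inside its span. None of the 10 windows held CACGTG, which is its own reverse complement and was found in 6.02% of all 32851 promoters of the table. That result says only that these letters were missing from these windows. On either strand, the AP-2 letters GCCNNNGGC were found in the promoters of Gata3 (3 matches), Cdx2 (1) and Gata2 (1, in the second of its 2 promoters), and in 13.7% of all promoters. The TEAD letters CATTCC, read on both strands, were found once each in Elf3, Elf5 and the second Gata2 promoter, and in 12.6% of all. The octamer ATGCAAAT, known as a site for POU factors such as POU5F1, was searched on both strands after the sequences had been read. It was found once in Elf3 and once in Cdx2, and in 1.6% of all promoters. Because these letters were chosen after that reading, no enrichment is read from this share. The promoters of Elf3, the most abundant of the 7 genes, and of Cdx2, one of the least abundant, are shown 5′ to 3′ because they share the octamer at opposite ends of the range of levels, and that of Eomes because it holds none of these letters. Capitals mark the octamer and, in Elf3, also the TEAD letters on the other strand. The printed stretch ends before the first base that the GENCODE annotation places in an exon. For Cdx2 this leaves out 21 bases, into which its AP-2 match reaches, so that match is not marked.
Elf3 (chr1:135258569-135258722, minus strand): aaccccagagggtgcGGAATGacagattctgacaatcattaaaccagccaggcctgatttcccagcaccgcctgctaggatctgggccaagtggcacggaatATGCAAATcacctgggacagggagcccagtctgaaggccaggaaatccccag
Cdx2 (chr5:147307271-147307499, minus strand): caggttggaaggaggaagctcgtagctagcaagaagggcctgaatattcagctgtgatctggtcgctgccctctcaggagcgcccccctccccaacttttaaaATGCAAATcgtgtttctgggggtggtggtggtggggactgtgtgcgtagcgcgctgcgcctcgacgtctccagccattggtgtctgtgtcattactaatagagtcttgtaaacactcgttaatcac
Eomes (chr9:118477939-118478188, plus strand): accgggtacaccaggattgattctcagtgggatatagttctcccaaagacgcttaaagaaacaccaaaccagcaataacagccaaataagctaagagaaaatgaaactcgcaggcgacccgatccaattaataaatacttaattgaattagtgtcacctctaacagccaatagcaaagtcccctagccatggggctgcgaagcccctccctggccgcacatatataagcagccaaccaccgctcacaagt

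The 8 genes fell into abundant, low and nearly absent members. Levels are compared between genes in FPKM, which adjusts for transcript length and library depth. Tfap2c and Elf3 had mean levels over the 4 libraries of 17.7 and 13.3 FPKM, Gata3 had 2.56 FPKM, and Eomes, Tfap2a and Gata2 had 0.875, 0.535 and 0.492 FPKM. Cdx2 and Elf5 were at 0 in 3 of the 4 libraries each. Tfap2c and Elf3 together made up between 82.5% and 94.8% of the summed FPKM of the 8 genes in a library. In this order the ranges over the 4 libraries were apart at 1 step only, between Gata2 (lowest 0.26 FPKM) and Cdx2 (highest 0.12 FPKM). Every other gene overlapped the next one, so the order of neighbors is not settled beyond the spread of the libraries.

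**Figure D1:**
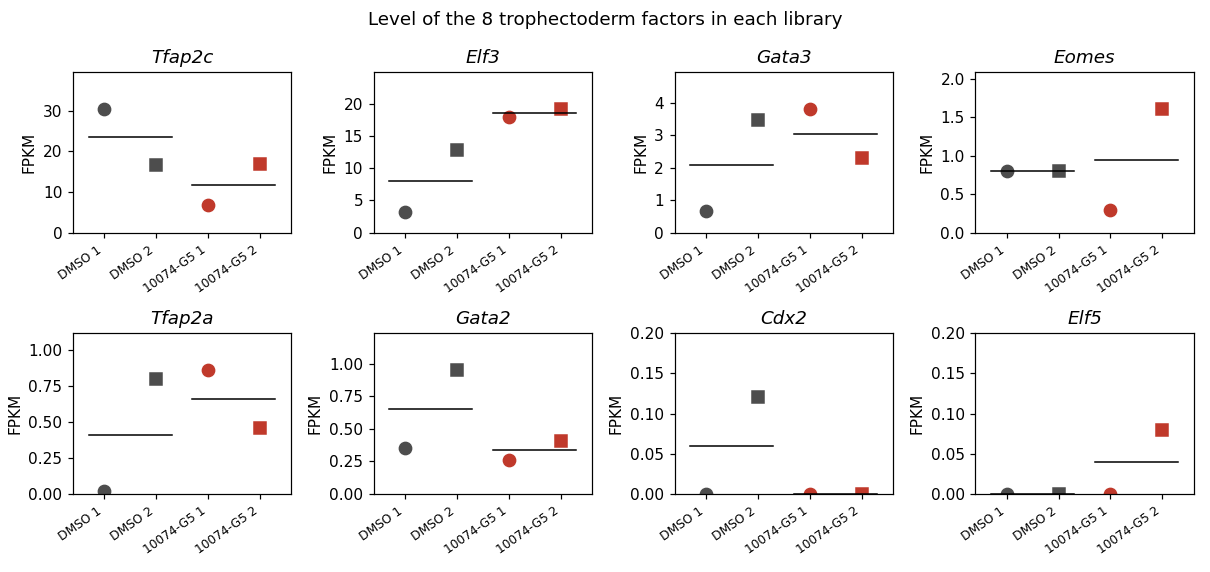
Level in FPKM (vertical axis, from 0, a separate scale for each gene) of the 8 factors in the 2 control (DMSO, grey) and 2 treated (10074-G5, red) libraries, with circles for replicate 1, squares for replicate 2 and a line at each group's mean. Tfap2c ran from 6.75 to 30.43 FPKM and Elf3 from 3.24 to 19.2 FPKM, while Cdx2 and Elf5 did not exceed 0.12 FPKM.

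The libraries held between 18206584 and 20718690 expected counts (the estimate of fragments per gene made by RSEM). DMSO replicate 1 stood apart from the other libraries. Its log2 CPM (counts scaled to a fixed total of the TMM-normalized library) over the 13549 tested genes, a description across genes that are no replicates, had a Pearson's r of 0.857 to 0.917 with the other libraries, against 0.941 to 0.958 among those 3. The summed level of 10 markers of the two-cell embryo, among them Zscan4c, Zscan4d and Zfp352, was 1406 FPKM in DMSO replicate 1, 4663 FPKM in DMSO replicate 2, and 6087 and 6385 FPKM in the treated libraries. Of these markers, 9 were lowest in DMSO replicate 1, while Eif1a was highest there, with 182.8 FPKM against 107.3 FPKM in DMSO replicate 2 and 79.06 and 63.94 FPKM in the treated libraries. The median log2FC of the list was 1.05 with all libraries and 0.34 without DMSO replicate 1. The summed level of 10 oocyte markers was 23989, 15848, 12452 and 13252 FPKM in the same order, nearly all of it from Dppa3, and 8 of the other 9 were lowest in DMSO replicate 1. The edgeR log2FC of many genes and lists below is therefore given with and without this library. The values by DESeq2 all include it. Of 14 cumulus cell markers, 4 (Foxl2, Amh, Inhba and Ptx3) were at 0 in every library. Others were detected, among them Tnfaip6, with 0 and 95 counts in control and 93 and 38 in treated embryos, Cyp19a1, with 23 and 25 against 128 and 27 counts, and Has2, with 1 and 0 against 30 and 5 counts. The cumulus list summed to 22.7 and 14.39 FPKM in control and to 12.88 and 7.69 FPKM in treated embryos, most of it in the controls from Amhr2. Amhr2 had 687 and 260 counts in control and 193 and 147 in treated embryos. Of the 5 cumulus markers that were tested, 2 had a log2FC above 0 and 3 below. Of 8 sperm markers, 3 were at 0 in every library, and the list summed to 2.7 and 4.51 FPKM in control and to 17.2 and 9.43 FPKM in treated embryos. Most of that sum came from Prm2 in every library, with 10 and 27 counts in control and 111 and 39 in treated embryos. Only 1 sperm marker, Prm2, was tested. Odf1 was highest in DMSO replicate 1, with 18 counts. The part of these markers in the results below was not tested.

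None of the 6 testable factors differed between the groups at the study's thresholds, an adjusted p under 0.05 together with |log2FC| > 1. The quasi-likelihood test of edgeR, adjusted over all tested genes by Benjamini-Hochberg, called 0 of 6, and also 0 of all 13549 tested genes, higher (0%) and 0 lower (0%). At an unadjusted p under 0.05 by edgeR, 639 genes (4.72%) were higher and 1374 (10.1%) lower in treated embryos, and none of the 6 factors was among them. DESeq2 with transcript lengths, the setting nearest to the study's own, called 83 genes (0.456%) higher and 429 (2.36%) lower. Tfap2c, Elf3 and Gata3 were not among them. DESeq2 gave no adjusted p for Eomes, Tfap2a, Gata2, Cdx2 and Elf5, so these could not be called. edgeR with no filter on low counts called 165 (0.906%) higher and 479 (2.63%) lower, none of the 8 among them. With this spread between replicates, a count of 0 calls does not show that levels were equal. The 2 treated libraries lay above both controls in CPM for 1 factor (Elf3) and below both for 2 (Tfap2c and Gata2). The same held for 28.9% of all tested genes in the higher and for 28.3% in the lower direction, so 3 of 6 is close to the background. With 2 libraries a group, the smallest two-sided p of an exact permutation test is 0.333.

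Tfap2c had the highest mean level of the factors over the 4 libraries, though in both treated libraries Elf3 was higher in FPKM. It encodes AP-2γ, which is stored in the oocyte, made again by the embryo, and needed for the trophectoderm epithelium. The gene lies on chromosome 2 from 172545678 to 172558622 in GRCm38.p6 and overlaps no other annotated gene. Its counts, rounded, were 1456 and 759 in control and 350 and 838 in treated embryos, which corresponded to 87.2 and 40.2 CPM against 16.2 and 40.0 CPM. DMSO replicate 1 was high, treated replicate 1 was low, and the second replicates of the groups were at nearly the same level. On the FPKM scale these 2 libraries changed places, with 16.69 in DMSO replicate 2 and 16.93 in treated replicate 2, so that the groups overlapped. The control mean was 63.7 ± 33.2 CPM (SD, n = 2) and the treated mean 28.1 ± 16.8 CPM (SD, n = 2). The log2FC was -1.18 ± 0.58 (SE, edgeR adjusted p = 0.367) and -1.19 ± 0.58 (SE, adjusted p = 0.164) by DESeq2 with transcript lengths. Replicates of one group differed by about as much, 2.17-fold in control and 2.46-fold in treated embryos. It was -0.50 without DMSO replicate 1, -0.63 without treated replicate 1 and -1.97 without treated replicate 2 (edgeR adjusted p = 0.803). Even at its lowest, Tfap2c was above 75.0% of the listed genes of that library.

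Elf3 had the opposite pattern. ELF3 is an ETS factor of epithelial cells, known from gut, lung and other epithelia. The gene lies on chromosome 1 from 135253574 to 135258472, and an antisense gene, Gm26642, overlaps it on the other strand. Its counts were 104 and 395 in control and 637 and 647 in treated embryos. The treated libraries were close to each other and above both controls, and DMSO replicate 1 was far below DMSO replicate 2. The control mean was 13.6 ± 10.4 CPM (SD, n = 2) and the treated mean 30.2 ± 0.93 CPM (SD, n = 2). The log2FC was 1.15 ± 0.61 (SE, edgeR adjusted p = 0.392) and 1.15 ± 0.62 (SE, adjusted p = 0.205) by DESeq2 with transcript lengths. The controls differed 3.36-fold, more than the groups did, and without DMSO replicate 1 the log2FC was 0.54.

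Tfap2c and Elf3 were called in 1 alternative, and their adjusted p ran from 0.0238 to 0.992 and from 0.00326 to 0.992 over all alternatives. Without DMSO replicate 2, which leaves DMSO replicate 1 as the only control and assumes that it varies like the treated libraries, edgeR called Tfap2c lower (log2FC -1.64, adjusted p = 0.0238) and Elf3 higher (log2FC 2.27, adjusted p = 0.00326). The same fit called 2148 genes higher and 2065 lower, which is 14.6% and 14.1% of the genes it tested. The ratio of the FPKM of Elf3 to that of Tfap2c within a library, which does not depend on how libraries are scaled and was formed after the values were seen, was 0.106 and 0.768 in control and 2.66 and 1.13 in treated embryos. The groups did not overlap in this ratio, but it was formed from values already given and adds no separate evidence. The share of other gene pairs whose ratio separates the groups was not computed. The controls differed in the Elf3 to Tfap2c ratio by more than the second replicates of the groups did.

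Gata3, a zinc finger factor that drives the trophectoderm program in parallel with Cdx2, was the third most abundant. It lies on chromosome 2 from 9857078 to 9887953, and 3 annotated genes overlap that span. Of these, 4930412O13Rik on the opposite and 9230102O04Rik on the same strand are listed in the deposited tables, and no source says that counting used strand, so reads could be split between them and Gata3. The counts of Gata3 were 38 and 186 in control and 232 and 133 in treated embryos. DMSO replicate 1 was low, and DMSO replicate 2 lay between the treated libraries. The log2FC of Gata3 was 0.49 ± 0.78 (SE, edgeR adjusted p = 0.777). Leaving out DMSO replicate 1 gave -0.19, and leaving out DMSO replicate 2 gave 1.90. The control mean of Gata3 was 2.08 ± 1.98 FPKM (SD, n = 2) and the treated mean 3.05 ± 1.07 FPKM (SD, n = 2).

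Eomes, Tfap2a and Gata2 were low in every library. Eomes, a T-box factor of trophoblast stem cells, lies on chromosome 9 from 118478186 to 118486132, where the antisense gene Gm33460 overlaps it. Its counts were 52 and 49 in control and 21 and 108 in treated embryos. The controls lay between the treated libraries, which differed 5.29-fold, and the log2FC of 0.10 ± 0.98 (SE, edgeR adjusted p = 0.969) became 0.89 without treated replicate 1 and -1.54 without treated replicate 2. The mean transcript length that RSEM gave for Eomes, which moves with the estimated mix of its 2 transcript forms, was 3695 and 3658 bases in control and 3715 and 3672 bases in treated embryos, and did not separate the groups. For Elf3, which also has 2 forms, it was 1956 and 1972 bases in control and 1989 and 1981 bases in treated embryos. The groups did not overlap, a description with no test. The share of all genes whose length separates the groups was not computed, so nothing is read from it.

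Tfap2a, which encodes the AP-2α relative of Tfap2c, lies on chromosome 13 from 40713802 to 40738238, where 3 antisense genes overlap it, among them Gm26688, which the deposited tables list. It had 1 and 43 counts in control and 53 and 27 counts in treated embryos. A single count in DMSO replicate 1 set it apart from the other 3 libraries, among which the groups overlapped. The log2FC of Tfap2a was 0.67 ± 1.55 (SE, edgeR adjusted p = 0.852) with all libraries and -0.27 without DMSO replicate 1. Gata2, a partner of Gata3 in trophoblast and a regulator of blood progenitors, lies on chromosome 6 from 88193891 to 88207032. Its counts were 20 and 51 in control and 16 and 24 in treated embryos. By CPM both treated libraries were below both controls, but DMSO replicate 1 (1.20 CPM) and treated replicate 2 (1.14 CPM) were nearly equal, and in counts they changed places. The log2FC of Gata2 was -1.04 ± 1.21 (SE, edgeR adjusted p = 0.682), and it ran from -1.49 to -0.34 when 1 library at a time was left out.

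Cdx2 and Elf5 did not pass the filter on low counts and were not tested. Cdx2, the homeobox factor that defines the trophectoderm, lies on chromosome 5 from 147300900 to 147307249. It had 4 counts in DMSO replicate 2 and 0 in the other 3 libraries. A count of 0 allows up to 3 counts, which for Cdx2 is between 0.0774 and 0.0840 FPKM in those libraries, for counting error only, since copies made by PCR were counted like molecules. Elf5, an ETS factor that holds trophoblast stem cells in their lineage, lies on chromosome 2 from 103412098 to 103450989. It had 3 counts in treated replicate 2 and 0 elsewhere, where the same limit is between 0.0764 and 0.0872 FPKM. At this depth no difference between the groups could be shown for either gene.

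**Figure D2:**
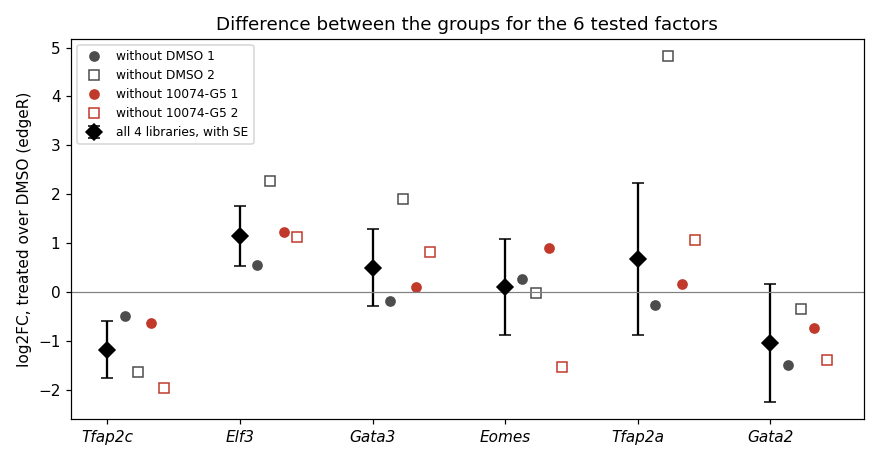
log2FC of treated over control embryos (vertical axis, edgeR) for the 6 tested factors, with all 4 libraries (black diamonds, bars are standard errors) and when 1 library at a time was left out (circles and squares). Tfap2c and Gata2 stayed below 0 and Elf3 above 0 in all 5 fits, while Gata3, Eomes and Tfap2a crossed 0.

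Over the 6 tested factors, 4 log2FC were above 0 and 2 below, with a median of 0.30, beside a median of 0.04 and 6973 higher and 6576 lower among all tested genes. Without DMSO replicate 1, the median of the 6 was -0.23 and 4 were below 0, beside a median of 0.06 over all genes. The DMSO replicates differed by over 2-fold in CPM for 5 of the 6 factors and for 43.4% of all tested genes. The treated replicates did so for 2 of the 6 (Tfap2c and Eomes) and for 21.9% of all. For Elf3, Gata3, Tfap2a and Gata2, the lower control library was DMSO replicate 1, which was also the library with the lowest level of two-cell markers. Tfap2c was highest in that library. The part of this library's state in these differences was not tested. In these bulk libraries, fewer embryos or cells that express a gene and less RNA from it per cell cannot be told apart.

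Relatives of the factors were compared within families, and in the GATA family 2 of them were more abundant than the trophectoderm members. Among the GATA factors, Gata1 and Gata4, better known from red blood cells and from heart and endoderm, had 20.9 and 16.3 FPKM on average. Their lowest levels, 11.1 and 9.07 FPKM, were above the highest of Gata3, 3.81 FPKM, and of Gata2, 0.95 FPKM. Among the ETS factors, Ehf, an epithelial relative of Elf3, had 14.3 FPKM and Elf1 7.35 FPKM, both overlapping Elf3, and Elf2 had 2.19 FPKM. Among the AP-2 factors, Tfap2e had 10.3 FPKM, overlapping Tfap2c, and Tfap2b had 1.68 FPKM. The range of Tfap2e (from 3.47 FPKM) was above that of Tfap2a (up to 0.86 FPKM) and of Tfap2b (up to 2.95 FPKM). The relatives of Eomes (Tbr1 and Tbx21) and of Cdx2 (Cdx1 and Cdx4) stayed at or below 1.19 FPKM in every library.

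**Figure D3:**
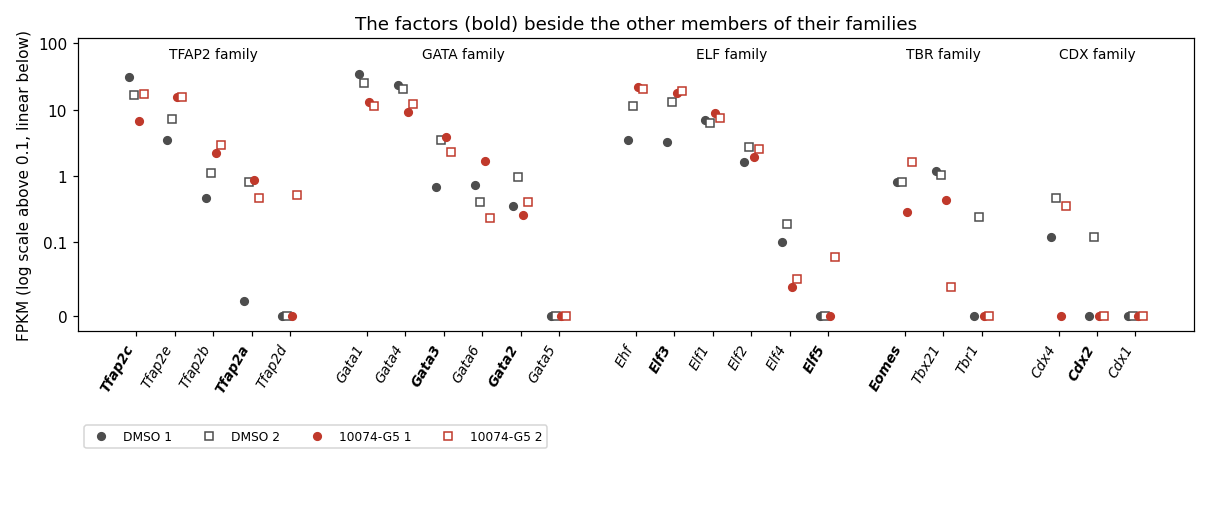
Level in FPKM (vertical axis, log scale above 0.1 and linear below) of the factors (bold) and of the other members of their 5 families in each library, in order of mean level. Gata1 and Gata4 lay above Gata3 and Gata2 in every library, and Ehf and Tfap2e had their highest levels in the 2 treated libraries, as Elf3 did.

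Of the 15 paralogues written down, 10 were tested, and edgeR called 0 at an adjusted p under 0.05. An unadjusted p under 0.05 was found for 3 higher and 2 lower genes, all of them among those named here. Over all tested genes, the shares were 4.72% higher and 10.1% lower. The list was chosen with earlier results of these data known. Ehf had counts of 276 and 842 in control and 1858 and 1668 in treated embryos, so that both treated libraries were above both controls and DMSO replicate 1 was lowest, as for Elf3. Its log2FC was 1.44 ± 0.52 (SE, edgeR adjusted p = 0.333) and 0.91 without DMSO replicate 1. Tfap2e had counts of 122 and 237 in control and 590 and 554 in treated embryos, the edgeR estimate of log2FC being 1.44 ± 0.49 (SE, edgeR adjusted p = 0.333), and 1.11 without DMSO replicate 1. Tfap2b was lower in level, with both treated libraries above both controls and a log2FC of 1.52 (adjusted p = 0.335 by edgeR). Gata1 had counts of 1072 and 731 in control and 440 and 358 in treated embryos, with a log2FC of -1.46 ± 0.44 (SE, edgeR adjusted p = 0.333), and -1.03 without DMSO replicate 1. Gata4 had counts of 1393 and 1171 in control and 586 and 740 in treated embryos, the edgeR estimate of log2FC being -1.22 ± 0.40 (SE, edgeR adjusted p = 0.333), and -0.97 without DMSO replicate 1. Elf1 and Elf2 had log2FC of 0.16 and -0.10 with overlapping groups. By DESeq2 with transcript lengths, the adjusted p was 0.0676 for Ehf, 0.0807 for Tfap2e, 0.0522 for Gata1 and 0.0788 for Gata4. It was 0.859 for Elf1 and 0.943 for Elf2, and DESeq2 gave none for Tfap2b.

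Of 20 other regulators of the trophectoderm, 17 were tested, 9 with a log2FC above 0 and 8 below, with a median of 0.20. Without DMSO replicate 1, 6 were below 0 and the median was 0.25. edgeR called 0 of them, and an unadjusted p under 0.05 was found for 1 higher and 2 lower genes (4.72% and 10.1% of all tested genes). The smallest p-values were those of Hand1 and Tead4. Tead4, which acts upstream of Cdx2 and Gata3, had counts of 412 and 241 in control and 102 and 56 in treated embryos. The groups did not overlap, and the log2FC of Tead4 was -2.34 ± 0.61 (SE, edgeR adjusted p = 0.333), -2.36 (adjusted p = 0.02) by DESeq2 with transcript lengths and -1.77 by edgeR without DMSO replicate 1. Hand1, a factor of trophoblast giant cells, had counts of 207 and 64 in control and 2 and 0 in treated embryos, so that the treated libraries were at or under the limit of 3 counts. Its fitted log2FC of -7.21 depends on the prior count (adjusted p = 0.333 by edgeR), and DESeq2 gave no adjusted p. Yap1 and Wwtr1, the coactivators of TEAD4, were named after their values were seen because they complete that step. Yap1 had 24.51 and 39.69 FPKM in control and 51.15 and 43.65 FPKM in treated embryos, and Wwtr1 had 12.37 and 14.4 FPKM against 6.98 and 11.21 FPKM. Their adjusted p-values were 0.553 and 0.418 by edgeR, and 0.471 and 0.312 by DESeq2 with transcript lengths.

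Of 30 genes of the trophectoderm epithelium and its transport, 20 were tested, with 14 log2FC above 0, 6 below and a median of 0.31, or 8 below and a median of 0.18 without DMSO replicate 1. edgeR called 0 of them, and an unadjusted p under 0.05 was found for 0 higher and 1 lower gene (4.72% and 10.1% of all tested genes). Aqp9, a channel for water and small solutes, had counts of 1097 and 482 in control and 347 and 295 in treated embryos, with a log2FC of -1.60 ± 0.54 (SE, edgeR adjusted p = 0.333) and -0.75 without DMSO replicate 1. F11r, a tight junction adhesion protein, had counts of 744 and 406 in control and 351 and 290 in treated embryos, with a log2FC of -1.13 ± 0.50 (SE, edgeR adjusted p = 0.343) and -0.50 without DMSO replicate 1. In both genes DMSO replicate 1 was the highest library and the groups did not overlap. By DESeq2 with transcript lengths, the adjusted p was 0.0606 for Aqp9 and 0.163 for F11r. The medians of these lists moved with the scaling of the libraries as all genes did. Scaled by library totals instead of TMM factors, the median was 0.17 over all genes, 0.41 over the 6 factors, 0.30 over the other regulators and 0.42 over the epithelial genes.

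**Figure D4:**
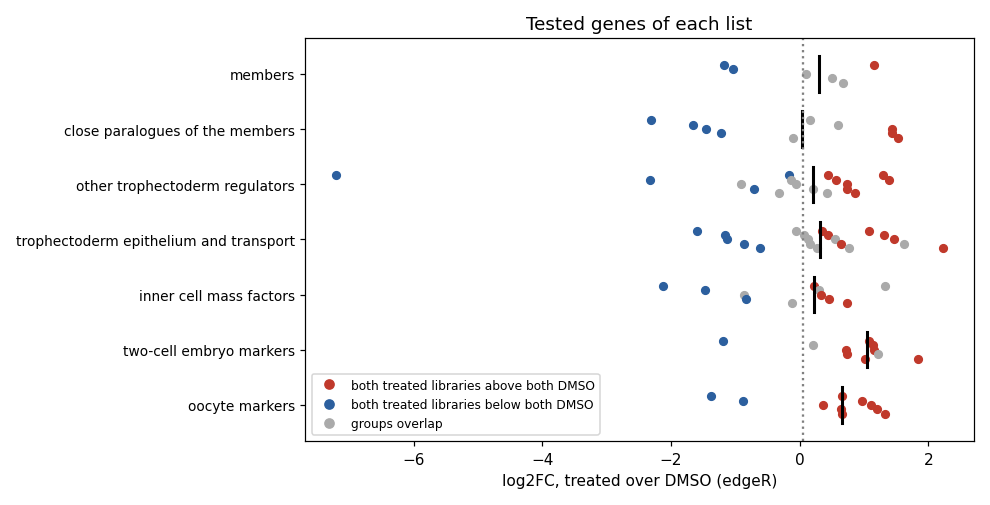
log2FC of treated over control embryos (horizontal axis, edgeR) of the tested genes of each list, 1 point a gene, colored by whether both treated libraries lay above (red) or below (blue) both controls in CPM or overlapped them (grey). Black bars are medians and the dotted line is the median of all tested genes, 0.04, against 0.30 for the 6 factors and 1.05 for the two-cell markers.

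By distance between profiles over the 4 libraries, the genes nearest to Tfap2c were Mesdc1, Atp5k and Traf2. The measure was the Euclidean distance between profiles of log2(CPM + 0.5), each centred on its own mean, and it was 0.13, 0.13 and 0.17. Mesdc1 ran from 2.28 CPM in DMSO replicate 1 to 0.0928 CPM in treated replicate 1. The ratio of its highest to its lowest CPM was larger than that of Tfap2c. At such low levels the added 0.5 narrows the profile, so the place of Mesdc1 depends on that choice. Atp5k had 31.7 and 15.4 CPM in control and 5.57 and 13.4 CPM in treated embryos. Traf2 had 19.1 and 7.78 CPM in control and 3.52 and 8.59 CPM in treated embryos, the same order of libraries as Tfap2c by FPKM. Of the 13549 tested genes, 141 lay within a distance of 0.5 of Tfap2c.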

How the data were processed

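The authors made polyadenylated libraries with a SMART-Seq kit, aligned the read pairs to mm10 with STAR (version 2.7.10 in the submitters' processing notes), kept only reads with 1 mapped position, and estimated the levels of 24411 genes by RSEM (version 1.3.3). The deposited expected count is an estimate of fragments per gene and is not normalized. The deposited FPKM is scaled to effective transcript length and library fragments, and the deposited TPM, used in 1 alternative, to length and a fixed total. The deposited transcript lengths were used as offsets in DESeq2.

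Expected counts were rounded, filtered with filterByExpr (minimum count 10, minimum total 15), which left 13549 genes, scaled with TMM factors and tested with edgeR 4.0.16 (quasi-likelihood test, robust, two-sided, Benjamini-Hochberg) in R 4.3.3. Standard errors are the log2FC over the root of the F statistic. The common biological coefficient of variation was 0.557. Alternatives used DESeq2 1.42.0 and limma 3.58.1, other scalings and filters, the replicate number as a block and each library left out. The edgeR route was tested on simulated data, where it recovered planted changes when replicates were close but not when their spread was like that of these libraries. Members, gene lists and tests were chosen with earlier results of these data known. The rule named all 8 factors, the 2 genes of each regulatory list with the smallest unadjusted p, paralogues with a mean of at least 1 FPKM and the 3 genes nearest to the most abundant factor. Promoters came from RefSeq (GRCm38.p6).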

Additional observations from a re-analysis of the deposited data

How the results depend on the processing

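The number of called factors was 0 in each direction in every setting except those that left out a library, where it ranged from 0 to 1 both higher and lower. Over all genes, higher and lower calls numbered 95 and 471 with DESeq2 on the same genes, 87 and 437 by DESeq2 when every gene with a count entered, 83 and 429 with DESeq2 and transcript lengths, 165 and 479 with no filter on low counts, and 12 and 32 with the replicate block. They were 0 and 0 with limma at either pseudocount, with DESeq2's size factors, with library totals, with at least 10 counts in every library and with the adjusted p alone. With each library left out in turn, they ranged from 1 to 2148 higher and from 1 to 2065 lower, and the high values came without DMSO replicate 2. The log2FC reversed for Gata3 (-0.19) and Tfap2a (-0.27) without DMSO replicate 1, and for Eomes without DMSO replicate 2 (-0.03), without treated replicate 2 (-1.54) and with the replicate block (-0.32). Over the fits that left out 1 library, the log2FC of Gata3 ran up to 1.90 and that of Tfap2a to 4.82, both without DMSO replicate 2, and that of Eomes to 0.89, without treated replicate 1. For these reversals the cause was not tested. The replicate numbers were not taken as pairs, since the deviations of same-numbered libraries from their group means had a correlation of -0.07 and no label says that a number marks a shared batch. Whether levels were taken from FPKM or TPM, 1 step in the order of the 8 factors was apart. By DESeq2 and limma only Tfap2c, Elf3 and Gata3 had an adjusted p, so the other factors could not be called in those settings. Depth limits Cdx2 and Elf5, which had at most 4 counts in a library, and 2 libraries a group limit the rest.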

Other observations

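The factors of the inner cell mass, the other lineage of the blastocyst, were described in the same way. Of 14 such genes, 11 were tested, with 6 log2FC above 0, 5 below and a median of 0.22, beside 0.04 over all tested genes. Without DMSO replicate 1 the medians were 0.09 and 0.06. edgeR called 0 of them, and an unadjusted p under 0.05 was found for 0 higher and 2 lower genes, Fgf4 and Prdm14. Over all tested genes, the shares were 4.72% higher and 10.1% lower. Fgf4, the growth factor that inner cells send to the trophectoderm and primitive endoderm, had counts of 518 and 560 in control and 122 and 172 in treated embryos. The replicates of each group were close and the groups did not overlap. The edgeR log2FC of Fgf4 was -2.13 ± 0.47 (SE, adjusted p = 0.333), -2.13 (adjusted p = 0.00903) by DESeq2 with transcript lengths and -2.08 by edgeR without DMSO replicate 1. Prdm14, a chromatin regulator of pluripotent and germ cells, had counts of 429 and 215 in control and 107 and 176 in treated embryos. The log2FC of Prdm14 was -1.47 (edgeR adjusted p = 0.334), -1.49 (adjusted p = 0.129) by DESeq2 with transcript lengths and -0.75 by edgeR without DMSO replicate 1. Nanog, like Cdx2 on the side of the trophectoderm, was nearly absent, with 3 counts in DMSO replicate 2 and 0 in the other libraries.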
